A study of Mus musculus with 6 samples.

Results

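The CC chemokine ligands are small secreted proteins, named for a pair of adjacent cysteines near the N terminus, that bind G-protein-coupled receptors on leukocytes and direct their migration. Tumor cells and the leukocytes around them both secrete these ligands, and which ligands are made helps to set which leukocytes enter a tumor, regulatory T cells (Tregs) and monocytes included. Most genes of the family lie in clusters, and many are switched on by NF-κB and interferon signaling. Of the 17204 genes measured, 10 such genes were followed in squamous cell carcinoma (SCC) cells with and without focal adhesion kinase (FAK): Ccl1 (ENSMUSG00000020702), Ccl2 (ENSMUSG00000035385), Ccl5 (ENSMUSG00000035042), Ccl7 (ENSMUSG00000035373), Ccl8 (ENSMUSG00000009185), Ccl11 (ENSMUSG00000020676), Ccl17 (ENSMUSG00000031780), Ccl20 (ENSMUSG00000026166), Ccl22 (ENSMUSG00000031779) and Ccl28 (ENSMUSG00000074715). They were chosen by a list of identifiers of CC ligand genes, all of which had a value in the array table. How the list was drawn up is not given in the sources used here, and it does not hold the whole family (Ccl12, for example, is not on it), so counts over the 10 genes do not describe the family. The list was put forward when the difference between these same cell lines was already known. The differences between the cell lines are therefore given as a description, without a test of their own.

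The study asked which transcripts of SCC cells depend on FAK, an adhesion-linked tyrosine kinase. All cells came from FVB mice of genotype K14CreER FAKflox/flox, in which a tamoxifen-activated Cre under the keratin 14 promoter deletes the floxed gene in keratinocytes. The carcinomas were induced in the skin of these mice by chemical carcinogenesis with DMBA and TPA, and the cells were isolated from them. The SCC FAK-/- cells are 1 FAK-null clone isolated after 4-hydroxytamoxifen, and the SCC FAK-WT cells are the same clone with wild-type FAK put back by retrovirus and kept under hygromycin, so that FAK, the retrovirus and the selection cannot be told apart in this comparison. Each cell line gave 3 replicates, with 1 Affymetrix array per sample. Each value is a log2 expression level from the authors' Robust Multi-array Average (RMA) normalization. The array medians lay between 5.90 and 5.97, single values ran from 1.34 to 13.76, and precision is limited by having few arrays per line. The median standard deviation (SD) of a gene between replicates was 0.155 log2 units in SCC FAK-WT and 0.145 in SCC FAK-/-. RNA was taken from whole cultures, so fewer expressing cells and less RNA per cell cannot be told apart. The transcript of the FAK gene and the markers of squamous and other cells were not analysed here, because the array identifiers were paired with symbols for the 10 ligand genes only.

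Of the 10 ligands, Ccl5 had the largest mean difference, 2.22-fold higher in SCC FAK-WT cells. Its arrays did not overlap between the lines, with SCC FAK-WT above, as in 11.5% of all genes. Ccl7, a neighbor of Ccl2, was higher on average in SCC FAK-WT with overlap between the lines, and Ccl17 was slightly lower. Ccl8 was high on a single SCC FAK-WT array. The remaining genes, Ccl1, Ccl2, Ccl11, Ccl20, Ccl22 and Ccl28, overlapped between the lines.

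Ccl5 (RANTES) attracts T cells and monocytes. Replicates 1, 2 and 3 of SCC FAK-WT had log2 values of 6.78, 7.34 and 6.75, and those of SCC FAK-/- had 5.92, 5.77 and 5.73 (the same order of replicates is kept throughout). Every SCC FAK-WT array was above every SCC FAK-/- array, with a gap of 0.83 between the nearest of them. The mean was 6.96 ± 0.337 (SD, n = 3) against 5.80 ± 0.0994 (SD, n = 3), a log2 fold change of 1.15 with a standard error (SE) of 0.174 from limma, a linear model whose variances are moderated across all genes. This is 2.22-fold higher in SCC FAK-WT cells, with a 95% interval of 1.67 to 2.95. By log2 fold change Ccl5 stood 69th from the top of the 17204 genes, and 0.965% of the genes had a larger change in either direction. The difference exceeded the SD between the replicates of either line.

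**Figure D1:**
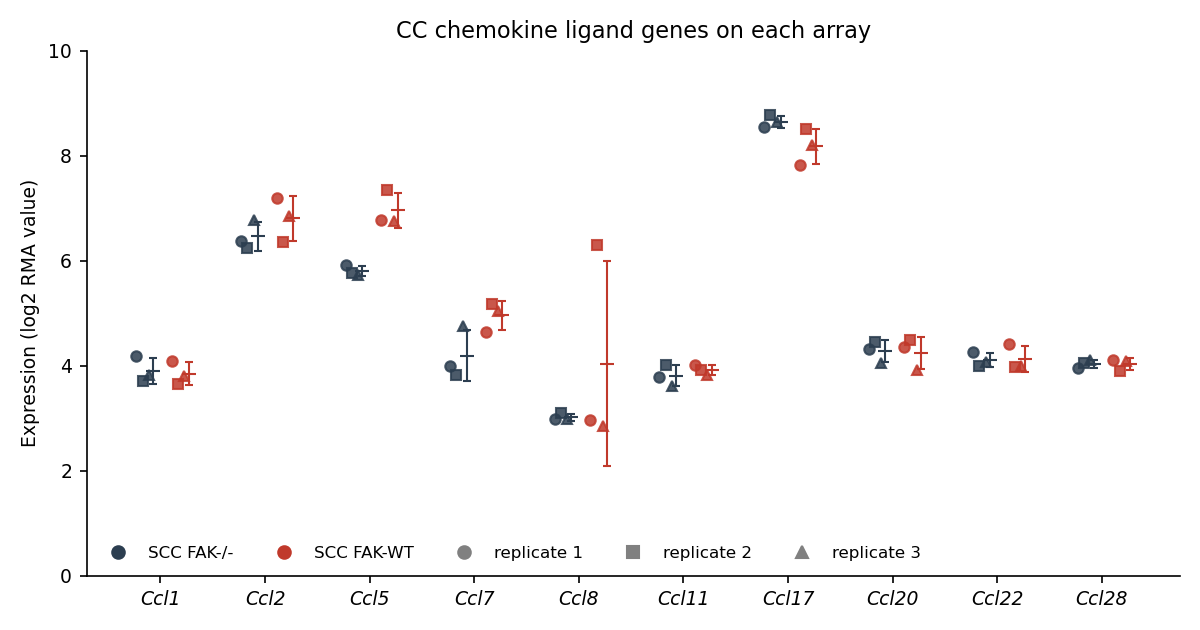
Log2 RMA expression of the 10 CC chemokine ligand genes on each of the 6 arrays (blue, SCC FAK-/-; red, SCC FAK-WT; symbol shape, replicate number), with the mean and SD of each cell line as a bar. Ccl5 separates the lines by 0.83, Ccl17 by 0.05, and the Ccl8 value of 6.29 on SCC FAK-WT replicate 2 stands alone. Levels of different genes come from different probes and are not read as relative amounts of transcript.

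Ccl2, Ccl7, Ccl8 and Ccl11 are close relatives. Ccl2 and Ccl7 attract monocytes through Ccr2, and Ccl11 (eotaxin) attracts eosinophils through Ccr3. Their genes lie beside one another on chromosome 11 in the order Ccl2, Ccl7, Ccl11 and Ccl8, followed by Ccl1, and the 1 protein-coding gene listed among them is Ccl12, between Ccl11 and Ccl8 (RefSeq, GRCm38.p6). Ccl5 lies on the same chromosome, with 25 protein-coding genes between it and Ccl1.

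Ccl7 (MCP-3) had log2 values of 4.65, 5.17 and 5.05 in SCC FAK-WT and 3.99, 3.83 and 4.75 in SCC FAK-/-. SCC FAK-/- replicate 3, at 4.75, lay above the lowest SCC FAK-WT array, so the lines overlapped. The mean was 4.96 ± 0.271 (SD, n = 3) against 4.19 ± 0.491 (SD, n = 3). The log2 fold change was 0.77 (SE 0.256), or 1.70-fold with a 95% interval of 1.12 to 2.58. Without SCC FAK-/- replicate 3 it was 1.05, and with any other single array left out it was 0.59 to 0.92.

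Ccl2 (MCP-1) had log2 values of 7.20, 6.36 and 6.86 in SCC FAK-WT and 6.38, 6.25 and 6.78 in SCC FAK-/-. The lines overlapped, since SCC FAK-WT replicate 2 lay among the SCC FAK-/- arrays, and SCC FAK-/- replicate 3 was the highest of its line for Ccl2, as it was for Ccl7. The log2 fold change of 0.34 (SE 0.234), 1.26-fold, had a 95% interval of 0.862 to 1.85-fold. A difference of this size was not resolved from the spread between replicates, and the interval does not show equal levels either.

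Ccl8 (MCP-2) had log2 values of 2.97, 6.29 and 2.85 in SCC FAK-WT and 2.99, 3.10 and 2.98 in SCC FAK-/-. One array, SCC FAK-WT replicate 2, was 3.19 log2 units above the highest of the other 5, which lay between 2.85 and 3.10. The mean difference of 1.01 (SE 0.841) carries a 95% interval from -0.96 to 2.99, and without that array it was -0.11. The difference between the lines thus rests on 1 array. Of all genes, 6 were more than 2 log2 units higher on SCC FAK-WT replicate 2 than on every other array, and the gap of Ccl8 was the 3rd largest of them. SCC FAK-/- replicate 3 had as many such genes, 6, SCC FAK-WT replicate 3 and SCC FAK-/- replicate 2 had 2 each, and the remaining arrays had 0. Replicate 2 was also the highest SCC FAK-WT array for Ccl5, Ccl7, Ccl17 and Ccl20 and the lowest for Ccl1, Ccl2, Ccl22 and Ccl28. Whether the Ccl8 value reflects the culture or the array was not tested.

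Ccl11 had log2 values of 4.02, 3.91 and 3.83 in SCC FAK-WT and 3.79, 4.02 and 3.61 in SCC FAK-/-. The log2 fold change was 0.11 (SE 0.132), with overlapping lines. Its 95% interval was -0.20 to 0.42.

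Ccl17 (TARC) and Ccl22 (MDC) are ligands of Ccr4, a receptor of Tregs and of skin-homing T cells, and Ccl1 is a ligand of Ccr8, another receptor found on Tregs. Ccl17 and Ccl22 are neighbors on chromosome 8 with 1 protein-coding gene, Cx3cl1, between them. Ccl17 had log2 values of 7.83, 8.50 and 8.20 in SCC FAK-WT and 8.55, 8.77 and 8.64 in SCC FAK-/-. All SCC FAK-WT arrays were below all SCC FAK-/- arrays, but the nearest arrays of the lines were 0.05 apart. The mean was 8.18 ± 0.335 (SD, n = 3) against 8.65 ± 0.114 (SD, n = 3), a log2 fold change of -0.47 (SE 0.175), or 1.39-fold higher in SCC FAK-/- cells. The 95% interval of the log2 fold change was -0.89 to -0.06, and 9.59% of all genes changed more in either direction. With single arrays left out it was -0.64 to -0.30.

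Ccl22 had log2 values of 4.42, 3.97 and 4.0 in SCC FAK-WT and 4.26, 3.99 and 4.08 in SCC FAK-/-, a log2 fold change of 0.02 (SE 0.15, 95% interval -0.33 to 0.38). Ccl1 had values of 4.09, 3.66 and 3.81 against 4.18, 3.71 and 3.82, a log2 fold change of -0.05 (SE 0.165, 95% interval -0.44 to 0.34). The arrays of the lines were interleaved for both genes.

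Ccl20, the ligand of Ccr6, and Ccl28, a ligand of Ccr10, are made by epithelia and attract lymphocytes to skin and mucosa. Ccl20 had log2 values of 4.36, 4.49 and 3.91 in SCC FAK-WT and 4.32, 4.46 and 4.06 in SCC FAK-/-, a log2 fold change of -0.03 (SE 0.181, 95% interval -0.45 to 0.40). Ccl28 had values of 4.10, 3.90 and 4.09 against 3.96, 4.06 and 4.11, a log2 fold change of -0.01 (SE 0.107, 95% interval -0.26 to 0.24). Both genes overlapped between the lines. The interval of Ccl28 was the narrowest of the 10 genes and that of Ccl8 the widest.

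**Figure D2:**
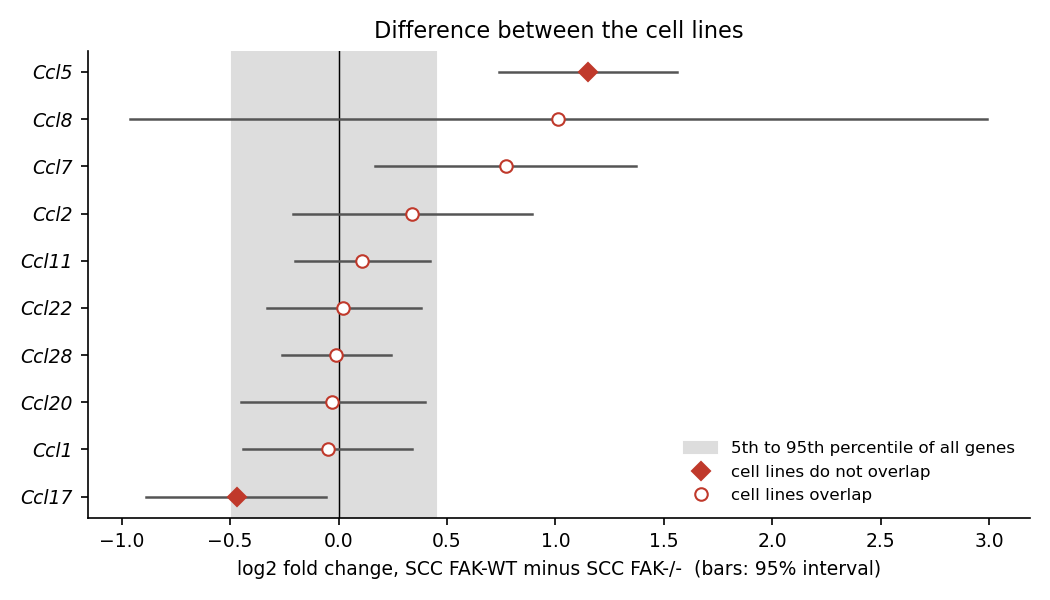
Log2 fold change of each gene (x axis, SCC FAK-WT minus SCC FAK-/-) with its 95% interval from limma, ordered by size. Filled diamonds mark Ccl5 (1.15) and Ccl17 (-0.47), whose cell lines do not overlap. Of all genes, 11.5% separate upward in this way and 10.0% downward. The gray band runs from -0.49 to 0.45, the 5th to 95th percentiles of all 17204 genes. Ccl5, Ccl8 and Ccl7 lie above the band, and the Ccl8 interval crosses 0.

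Most of the 10 genes had low values. Of them, 7 had a mean below 4.62, the bound under which the filter on dim genes removes a gene: Ccl1, Ccl7, Ccl8, Ccl11, Ccl20, Ccl22 and Ccl28. The other 3, Ccl2, Ccl5 and Ccl17, were above the median gene, 5.94. Over the whole table, the filter kept 11469 of 17204 genes. No detection calls were among the values used, and RMA values near the background understate changes, so a narrow interval in a dim gene describes the array signal and does not show that the transcript was present.

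As calls of the fit over all genes, given as a description from which nothing is read, 1 of the 10 genes, Ccl5, was called higher in SCC FAK-WT at a Benjamini-Hochberg adjusted p under 0.05, where 0.820% of all genes were called, and 0 were called lower, where 1.10% of all genes were. The Ccl5 call was lost (0 genes) without SCC FAK-WT replicate 1 and without any 1 of the 3 SCC FAK-/- arrays. Over all genes, calls higher fell from 141 to 75 without that SCC FAK-WT array. Without SCC FAK-/- replicates 1, 2 and 3 in turn they fell to 49, 44 and 51. The Ccl5 call was kept without SCC FAK-WT replicate 2 or 3, where 77 and 67 genes were called higher. It was lost without moderation of the variances (14 genes called higher) and with the replicate number as a block (69 genes). The study used a p under 0.01 for its array calls and named neither a test nor an adjustment. At an unadjusted p under 0.01 here, Ccl5 again was the 1 gene called higher (3.19% of all genes) and 0 were called lower (3.66%). Ccl7 joined it without SCC FAK-/- replicate 3 (2 genes), where 372 of all 17204 genes were called higher. Ccl17 was called lower without SCC FAK-WT replicate 2 (1 gene), where 538 of all genes were. At an unadjusted p under 0.05 the calls were 2 higher, Ccl5 and Ccl7 (7.76% of all genes), and 1 lower, Ccl17 (7.74% of all genes). All SCC FAK-WT arrays were above all SCC FAK-/- arrays in 1 of the 10 (Ccl5), as in 11.5% of all genes, and below them in 1 (Ccl17), as in 10.0% of all genes. The mean was higher in SCC FAK-WT for 6 of the genes and lower for 4. The median of the 10 log2 fold changes was 0.07, beside 0.0156 for all genes, and their median size without sign was 0.22, beside 0.14.

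**Figure D3:**
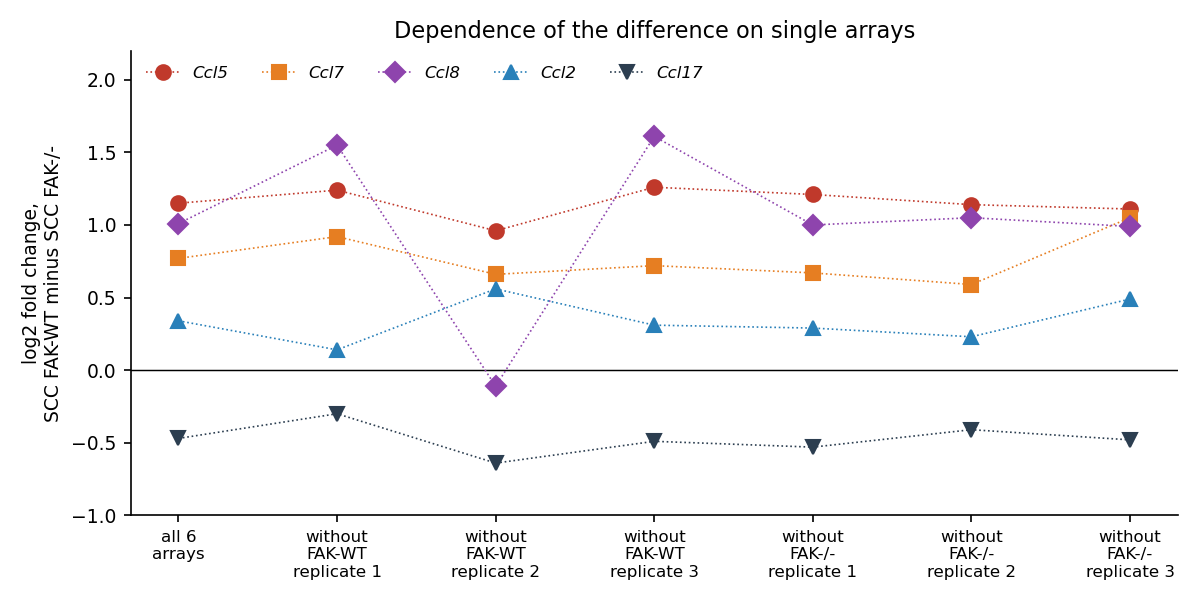
Log2 fold change (y axis, SCC FAK-WT minus SCC FAK-/-) of the 5 genes with the largest differences, with all 6 arrays and with each array left out in turn; dotted lines only join points of a gene. Ccl5 stays between 0.96 and 1.26 and Ccl17 between -0.64 and -0.30, while Ccl8 drops to -0.11 without SCC FAK-WT replicate 2.

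Promoter sequences of 6 of the 10 genes, Ccl1, Ccl8, Ccl17, Ccl20, Ccl22 and Ccl28, were read from RefSeq (GRCm38.p6), as the 250 bases before the start of the gene. The reference used held no promoter sequence for the other 4, Ccl2, Ccl5, Ccl7 and Ccl11, so the motif counts do not cover them. The pair Ccl17 and Ccl22 is shown because they are neighbors with 1 receptor in common, and Ccl8 because of its single high array. Whether Ccl17 and Ccl22 differ from each other was not tested. Ccl17 is at chr8:94810203-94810452, Ccl22 at chr8:94745434-94745683 and Ccl8 at chr11:82114935-82115184, all on the plus strand, written 5′ to 3′ with motif matches in capitals.
Ccl17: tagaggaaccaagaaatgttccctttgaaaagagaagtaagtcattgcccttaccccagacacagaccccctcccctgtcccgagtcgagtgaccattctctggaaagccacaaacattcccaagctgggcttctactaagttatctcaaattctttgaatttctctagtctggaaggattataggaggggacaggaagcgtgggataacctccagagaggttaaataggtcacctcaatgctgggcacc
Ccl22: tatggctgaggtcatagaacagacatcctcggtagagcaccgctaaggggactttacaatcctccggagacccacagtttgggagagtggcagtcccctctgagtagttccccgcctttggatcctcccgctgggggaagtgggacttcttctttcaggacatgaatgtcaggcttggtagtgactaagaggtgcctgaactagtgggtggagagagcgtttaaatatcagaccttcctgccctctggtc
Ccl8: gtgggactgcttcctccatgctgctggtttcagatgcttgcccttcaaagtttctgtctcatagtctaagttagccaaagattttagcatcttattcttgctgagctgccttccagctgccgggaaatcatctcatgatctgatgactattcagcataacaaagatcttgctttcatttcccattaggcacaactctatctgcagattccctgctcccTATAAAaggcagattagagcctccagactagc

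The motifs searched were named for factors that act on chemokine promoters, on both strands: NF-κB (GGNNNTTCC), the interferon-stimulated response element (AAANNGAAA), AP-1 (TGANTCA), C/EBP (TTGCNNAA) and the TATA box (TATAAA). None of them matched in the Ccl17 and Ccl22 windows, and the capitals in Ccl8 are a TATA box at positions -32 to -27, a motif in 12.4% of all 32851 promoters. NF-κB letters were in 2 of the 6 windows, Ccl1 (GGAAGTTCC, -195 to -187) and Ccl20 (GGAAAACCC, -80 to -72), and in 15.7% of all promoters. Interferon response letters were in Ccl28 alone (TTTCATTTT, -238 to -230) and in 9.37% of all. The AP-1 and C/EBP letters were in 0 of the 6 and in 6.75% and 9.56% of all. Matches describe letters in these windows and say nothing of binding.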

How the data were processed

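Expression was measured in 3 samples of SCC FAK-WT and 3 of SCC FAK-/- cells on Affymetrix GeneChip mouse genome arrays, 1 per sample. The authors summarised the arrays by Ensembl gene identifier and normalized them by RMA in the affy package, and deposited log2 values, 1 for each gene on each array. Their range gave the scale, which the methods do not name. Package version, probe mapping and type of background correction are not given in the sources used here.

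All 17204 genes were fitted without a filter with limma 3.58.1 in R 4.3.3 (lmFit, eBayes, two-sided), and p-values were adjusted by Benjamini-Hochberg across the whole table. Calls used an adjusted p under 0.05 or an unadjusted p under 0.01. Calls at an unadjusted p under 0.05, which was not among the planned thresholds, are given as well. The fit was tested on simulated data. The 10 genes, the motifs and the lists were chosen with earlier results of these data known. All 10 genes are named. The array identifiers matched 0 entries of the gene table used, so the planned lists of receptors, further ligands, regulators and cell markers, and the FAK gene, were not analysed here. Alternatives were other moderation, scaling, weights, a filter on dim genes (mean below 4.62), a minimum change of 1.5-fold, the replicate number as a block and leaving out each array. The replicate numbers were checked for pairing. Motifs were searched with Python 3.11.15.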

Additional observations from a re-analysis of the deposited data

How the results depend on the processing

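The single call at an adjusted p under 0.05, Ccl5 (1 gene higher), was kept when the variance moderation allowed a trend and was robust, and under each of the 3 further scalings, array weights, the filter on dim genes and a minimum change of 1.5-fold. It was lost (0 genes) without moderation of the variances (14 of all genes higher) and with the replicate block (69). The cause was not tested, and the block spends 2 residual degrees of freedom. Across genes, deviations of same-numbered arrays from their line's mean correlated at -0.0338 to 0.028. Of the 6 arrays, 2 correlated best with the array of their own number. The sample titles do not say whether same-numbered samples were handled together, and these correlations cannot settle it. With each array left out the count was 0 to 1 (44 to 77 of all genes). It was 0 without SCC FAK-WT replicate 1 and without any 1 SCC FAK-/- array. At an unadjusted p under 0.01 the count of higher genes was 1 under all of these, the block included, with 1 exception. Without SCC FAK-/- replicate 3, Ccl7 joined Ccl5 (range 1 to 2), beside 372 of all genes. Lower genes numbered 0 except without SCC FAK-WT replicate 2, where Ccl17 was called (range 0 to 1), beside 538 of all genes. The log2 fold change of Ccl5 was 1.10 to 1.18 with all arrays and 0.96 to 1.26 with 1 left out, and Ccl2, Ccl5, Ccl7, Ccl11 and Ccl17 kept their direction throughout. Ccl8 changed direction without SCC FAK-WT replicate 2 (-0.11), and Ccl1, Ccl20, Ccl22 and Ccl28, all within 0.06 of 0, changed direction under 2 to 4 of 13 settings. The filter on dim genes removed 7 of the 10 genes and kept 11469 of all 17204 genes. With stricter spellings, NF-κB letters were in 1 promoter and interferon response letters in 0. Planned fits of other lists and the FAK gene were not run, as identifiers were not paired with symbols. With 3 arrays per line, each difference is known only to within its interval, and an interval that includes 0 does not show equal levels.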
